A study of Mus musculus with 4 samples.

Results

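Somatostatin (Sst), vasoactive intestinal peptide (Vip) and neuropeptide Y (Npy) were examined as 3 of the 300 gene columns of a table of transcript puncta per cell, chosen by name as neuropeptides best known in the retina from amacrine cells. The table covers 131379 cells of 5 retinas from wild-type C57BL/6 mice. Retinas were cut as en face cryosections and probed with a custom Xenium panel, an in situ assay that counts single RNA molecules as fluorescent puncta. Every cell carries the class retinal ganglion cell (RGC) and 1 of 45 predicted RGC types, so an amacrine cell could appear only under an RGC name. The retinas held 35099, 41048, 13127, 27734 and 14371 cells with medians of 285 to 326 puncta per cell, no cell had fewer than 100 puncta, and the retina was the replicate (n = 5).

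RGCs are the output neurons of the retina, and their axons form the optic nerve. Amacrine cells are inhibitory interneurons, most of them using GABA or glycine. Some have their somata displaced into the ganglion cell layer, where they lie among the RGCs. Many amacrine types release a peptide besides their fast transmitter. Somatostatin marks sparse wide-field cells that in mouse lie largely in the ventral retina, Vip marks wide-field GABAergic cells, and Npy marks a further set of GABAergic cells. Peptide transcripts are usually abundant in the cells that use them.

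Sst was held by few cells, and its transcripts were concentrated in a small number of them. In all, 992 Sst puncta lay in 452 cells, which is 0.333% ± 0.067 of cells per retina (SD, n = 5). Of these cells 324 held 1 punctum, 47 held 2, 29 held 3 to 4, 31 held 5 to 9 and 21 held 10 or more. The fullest cell had 17. The 52 cells with at least 5 puncta held 47.5% of all Sst puncta. Vip had 2004 puncta in 1557 cells, 1.3% ± 0.325 of cells (SD, n = 5), and 1326 of them held a single punctum. Its 29 cells with at least 5 puncta held 10.2% of the Vip puncta, and the fullest had 15. Npy had 7228 puncta in 6341 cells, 5.00% ± 0.499 (SD, n = 5). It was almost wholly a signal of single puncta: 5602 cells held 1, only 108 held 3 or more, and no cell held over 6. The ratio of variance to mean across cells was 5.77 for Sst, 2.04 for Vip and 1.24 for Npy, against a median of 2.11 over the 300 panel genes. No cell class of the table lacks these genes with certainty, so the share of cells that stray puncta alone would give was not measured.

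The 3 genes differed in how they spread over the retinas. Per 10000 puncta of all genes, Sst stood at 0.195, 0.234, 0.158, 0.331 and 0.227 in retinas 1 to 5. Retina 4 was the highest for Sst and retina 3 the lowest. Vip stood at 0.355, 0.380, 0.795, 0.572 and 0.577, with retina 3 the highest. Npy varied least, at 1.53, 1.68, 2.02, 1.74 and 1.92. Among the 30 sections with at least 500 cells, Sst ran from 0.0154 to 0.985 per 10000, Vip from 0.162 to 1.62 and Npy from 0.809 to 2.82. Cells with at least 5 Sst puncta were found in every retina, 13, 13, 3, 16 and 7 of them, as were those with at least 5 Vip puncta, 4, 4, 9, 8 and 4.

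Cells with many Sst puncta carried few transcripts of the genes that define RGCs. Summed over 7 RGC genes (Rbpms, an RNA-binding protein found in nearly all RGCs; Slc17a6, the vesicular glutamate transporter; Pou4f2, Pou4f3, Isl1 and Isl2, transcription factors of RGCs; and Nefh, a neurofilament subunit), cells with at least 5 Sst puncta had 279 ± 117 per 10000 and cells without Sst 853 ± 26.4 (SD, n = 5 retinas). The retinas ranged from 115 to 408 in the former and from 823 to 886 in the latter and did not overlap. The median over cells went with each class of Sst puncta from 854 per 10000 at none through 826, 709, 242 and 156 to 120 at 10 or more. In the same classes a sum over 18 amacrine genes other than the 3 members went from 573 through 589, 809, 1026 and 1095 to 1190. Neither Rbpms nor Slc17a6 was detected in 20 of the 52 Sst-rich cells, or 38.5%, against 1.22% of the cells without Sst. Median depth did not follow this order: it was 304 puncta in cells without Sst, 187 at 3 to 4 Sst puncta and 341 at 10 or more.

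The lists leaned the same way by less in cells with much Vip or Npy. Cells with at least 5 Vip puncta had 706 ± 155 per 10000 in RGC genes and 788 ± 173 in amacrine genes (SD, n = 5), both of which overlapped the cells without Vip, and 3 of 29 held neither Rbpms nor Slc17a6. Cells with at least 3 Npy puncta had 804 ± 60.9 in RGC genes, which overlapped the cells without Npy, and 848 ± 51.2 in amacrine genes, against 618 ± 6.79 without Npy (SD, n = 5). None of these 108 Npy-rich cells lacked both Rbpms and Slc17a6, and Rbpms was found in 104 of them. The Vip-rich and Npy-rich cells were also deeper, with medians of 425 and 384.5 puncta against 303 and 302 in cells without the gene. The part of that depth in the marker sums was not tested.

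**Figure D1:**
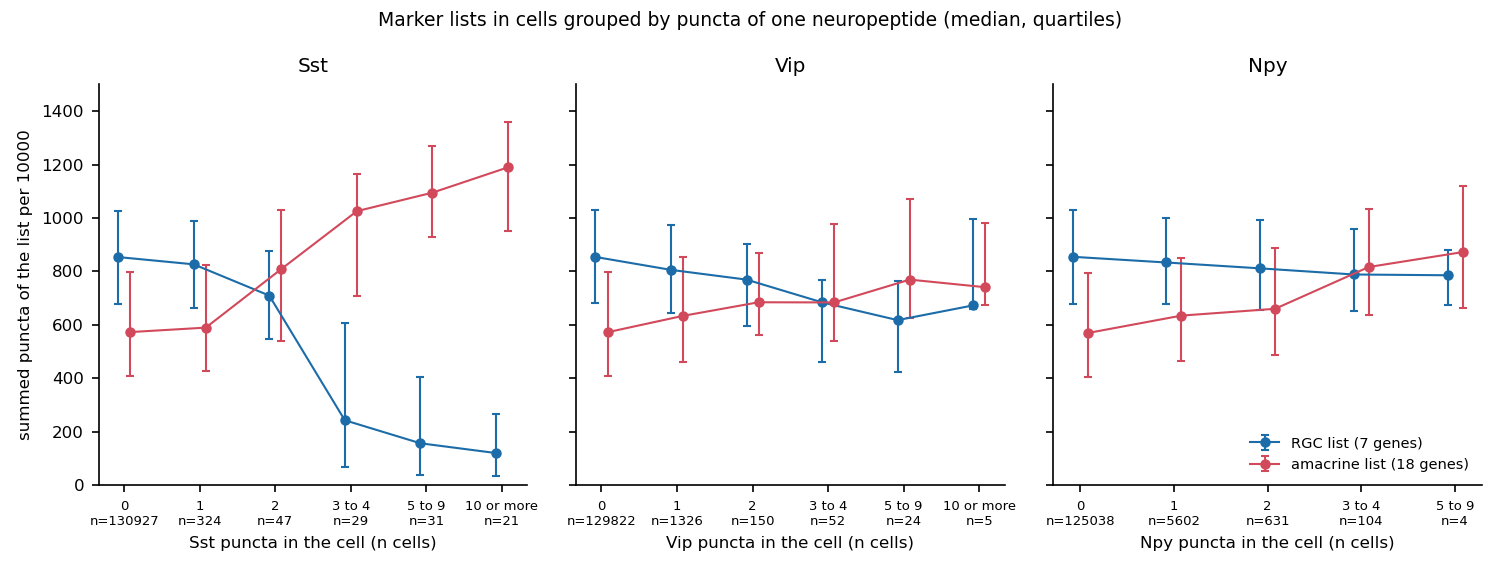
Median summed level of 7 RGC genes and of 18 amacrine genes (puncta per 10000) in cells grouped by their number of Sst, Vip or Npy puncta, with bars for the quartiles over cells. RGC genes fall from 854 to 120 per 10000 with rising Sst and by far smaller steps with Vip and Npy.

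The cells that held Sst were compared with all other cells by sums per retina. Of 299 other genes 37 passed an adjusted p of 0.05 in edgeR's quasi-likelihood test (12.4%), 30 higher and 7 lower in the Sst-holding cells. Serpine2, a secreted protease inhibitor, led by log2 3.03 ± 0.14 (SE, adjusted p = 3.88e-10), from 0.122 puncta per cell to 1.04. By retina Serpine2 ran from 29.3 to 35.1 per 10000 in Sst-holding cells and from 3.67 to 4.18 in the others. Zcchc12, a transcriptional coactivator, rose by 2.66 ± 0.11 and Gal, which encodes the peptide galanin, by 2.47 ± 0.28 (SE). Cacna1e, a voltage-gated calcium channel subunit, rose by 1.99 ± 0.10, and Cbln4, a secreted synaptic organiser, by 1.75 ± 0.21. Qpct, which cyclises the N-terminal glutamine of peptides, rose by 1.53 ± 0.15, Hap1, a trafficking partner of huntingtin, by 1.47 ± 0.08 and Tmem176b by 1.3 ± 0.17. Of the other genes on the peptide list (6 neuropeptides and the growth factor Igf1), Gal was the 1 of 7 that rose.

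The genes that were lower in Sst-holding cells included 3 of the 7 RGC genes. Pou4f2 changed by -0.47 ± 0.14, Rbpms by -0.28 ± 0.07 and Slc17a6 by -0.28 ± 0.06 (SE), and the other 4 did not pass. Onecut1, a transcription factor shared by horizontal cells and RGCs, changed by -0.51 ± 0.12, Gprc5b by -0.36 and Fgf1 by -0.31. Of the 20 other amacrine genes tested 6 rose and none fell. No bipolar, rod or Mueller glia gene of the lists passed in either direction. When the cells without Sst were weighted to the same types, or to the same sections, each of the 6 lower genes named here missed the threshold.

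Setting the 52 Sst-rich cells against cells with no Sst widened the list to 112 of 299 genes (37.5%), of which 46 rose and 66 fell. All 37 genes called with any Sst punctum were among them. The rich cells are part of the Sst-holding cells, and both were set against the same cells without Sst. The overlap of the 2 lists is thus no independent support. All 7 RGC genes fell, with a median of -1.81: Slc17a6 by 2.00 on the log2 scale, from 11.6 to 2.67 puncta per cell, Rbpms by 1.38, Isl2 by 3.53 and Pou4f3 by 3.18. Of 20 amacrine genes 9 rose and 1 fell. Those that rose included Gad1 (2.72) and Gad2 (1.71), which make GABA, Slc32a1 (2.12), the vesicular transporter of GABA and glycine, and Tfap2a (2.45) and Tfap2b (2.92), transcription factors of amacrine cells. Gad1 was detected in 90.4% of Sst-rich cells and 35.5% of cells without Sst, and Tfap2b in 96.2% and 30.7%. Chat, the enzyme that makes acetylcholine in starburst amacrine cells, did not pass. Eomes, a transcription factor known both from melanopsin RGCs and from some amacrine cells, rose by 2.79 and was detected in 92.3% of Sst-rich cells.

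The type that held the most Sst-rich cells was 33_M1, the melanopsin-expressing RGCs of the M1 class, which signal ambient light. It held 18 of the 52. Opn4, the melanopsin gene that defines these cells, was found in 0 of the 18, which allows a share of up to 16.7%, and in 58.7% of the 1440 M1 cells without Sst. Tbx20, a second transcription factor of that class, was found in 1 of the 18 against 46.0%. Eomes was found in all 18 against 77.8%, at 6.17 and 5.86 puncta per cell. Serpine2 stood at 6.67 puncta per cell in the Sst-rich M1 cells and 0.222 in the others, Hap1 at 14.0 and 2.94, Gad1 at 5.56 and 0.951, and Tfap2b at 4.89 and 0.635. Rbpms was found in 4 of the 18 and in 82.5% of the rest. Depth was not lower in the Sst-rich cells of this type, with a median of 323 puncta against 215.

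The same genes were followed in the Sst-rich cells under other type names. Serpine2, Eomes and Rbpms had already been seen to differ over all Sst-rich cells pooled, whichever type name they carried. Dividing those same cells by type thus describes how the pooled difference was spread over the names. It is not an independent test of these genes. In 01_W3D1.1, Serpine2 was found in 8 of 8 Sst-rich cells and 22.1% of the others, Eomes in 7 of 8 and 14.3%, and Rbpms in 2 of 8 and 90.9%. In 44_Novel, Serpine2 and Eomes were each found in 7 of 7, against 23.5% and 20.5%, and Rbpms in 2 of 7 against 86.1%. Over all remaining types, Serpine2 was found in 18 of 19 Sst-rich cells against 8.57%, but Rbpms was present in 16 of the 19 against 95.4%.

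With Vip, many genes moved by small amounts. Among 299 genes 123 passed (41.1%), 66 higher and 57 lower in the 1557 Vip-holding cells. Nr4a2, an orphan nuclear receptor, rose by 1.27 ± 0.12 (SE, adjusted p = 1.22e-05 in edgeR), with retinas at 3.21 to 5.22 per 10000 in the Vip-holding cells and 1.48 to 2.06 in the others. Kcna5, a voltage-gated potassium channel, rose by 0.84 ± 0.07 (adjusted p = 4.70e-06), with retinas at 14.7 to 28.0 and 8.90 to 13. A930001A20Rik rose by 1.23 ± 0.21, Lamp5 by 1.14 ± 0.14, Lrtm1 by 1.02 ± 0.12, and the GABA receptor subunits Gabrr1 and Gabrr3 by 1.1 ± 0.19 and 0.85 ± 0.23 (SE). Lhx4, a transcription factor of bipolar cells, rose by 0.78 ± 0.28 (adjusted p = 0.0405), a call that was lost with equal types (adjusted p = 0.0632 in limma) and with equal sections (0.0989), and that of Gabrr3 was lost with equal sections (0.0732). Gad1 rose by 0.52, Tfap2a by 0.66, Tfap2b by 0.58 and Npy by 0.41.

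Genes of several other retinal cells rose together with Vip. Of the amacrine genes 8 of 20 rose and 1 fell, of the bipolar genes 8 of 11 rose and 1 fell, all 3 rod genes rose, 4 of 5 Mueller glia genes rose and all 7 RGC genes fell, with a median of -0.16. Summed rod genes ran from 37.2 to 87.8 per 10000 over the retinas in Vip-holding cells and from 25.5 to 57.7 in the others. The summed bipolar genes ran from 91.0 to 137 and from 88.4 to 114, and the summed Mueller genes from 56.5 to 73.1 and from 44 to 59.3. These ranges overlapped, and the part of these cells in the Vip result was not tested. Weighted to the same sections, 58 genes passed, with 7 amacrine, 4 bipolar, 2 rod and 3 Mueller genes higher and 1 RGC gene lower. Without retina 4, 77 genes passed.

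The genes that fell with Vip included 3 of the 5 genes listed for melanopsin RGCs, while Opn4 itself did not pass (-0.30, adjusted p = 0.0527 in edgeR). Tbx20 changed by -0.75 ± 0.14 (SE), Eomes by -0.34 and Igf1, a growth factor, by -0.33. With equal types Eomes (-0.08, adjusted p = 0.412 in limma) and Igf1 (-0.21, adjusted p = 0.0552) missed the threshold, and with equal sections Igf1 did (adjusted p = 0.144). Arpp21, Syndig1l, Lxn, Pou4f3 and Sh3bgr changed by -0.33 to -0.25. For the 29 Vip-rich cells 6 of 299 genes passed (2.01%), 5 higher and 1 lower. Kcna5 rose by 2.22 (adjusted p = 0.000529 in edgeR) and Nr4a2 by 2.60 (adjusted p = 0.0352), Tfap2a rose by 1.83, Cbln4 and Cbln2 also rose, and Isl1 fell by 1.40 on the log2 scale.

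With Npy, 67 of 299 genes passed (22.4%), 43 higher and 24 lower. Chat rose most, by 1.77 ± 0.07 (SE, adjusted p = 3.77e-11 in edgeR), from 0.236 to 0.933 puncta per cell. Its retinas stood at 20.0 to 33 per 10000 in Npy-holding cells and 6.31 to 7.86 in the others. Gad1 rose by 0.96 ± 0.04 (adjusted p = 3.59e-11) and Tfap2b by 0.75 ± 0.04. Gpr179 and Grm3, a receptor-like protein of ON bipolar cells and a metabotropic glutamate receptor, rose by 0.92 ± 0.09 and 0.83 ± 0.10. Tnnt1 rose by 0.75 ± 0.16 and Igfbp7, a secreted binding protein, by 0.75 ± 0.08. Vip rose by 0.64 ± 0.19 (adjusted p = 0.0205), a call that was lost under 5 other settings and without retina 3 or 5. Of 20 amacrine genes 8 rose and 2 fell, and of the 7 RGC genes 1 rose and 2 fell, with a median of -0.05.

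Among the 7 genes of the peptide list tested with Npy, Vip and Cck (cholecystokinin, 0.50 ± 0.07, SE) rose and Penk (proenkephalin) fell. Penk changed by -0.31 ± 0.04 (adjusted p = 5.51e-05 in edgeR), beside Gnb3 by -0.33, a G protein subunit of cones and bipolar cells, and Zic1 by -0.21. Lypd1, Grik1, Isl2, Pcdh11x and Stk32a changed by -0.18 to -0.10. In the 108 cells with at least 3 Npy puncta 30 of 299 genes passed (10%), 24 higher and 6 lower. Chat was 3.32 higher on the log2 scale and was detected in 67.6% of these cells against 15.3% of cells without Npy. Gad1 was 2.04 higher, in 83.3% of them, and Tfap2b 2.02 higher. No RGC gene fell in this set and 1 rose.

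Levels over the 45 types are given as a description, because the type prediction may have used these columns. The mean level of Sst was highest in 2 types, in each of which few cells held it. In 44_Novel its level was 9.12 ± 7.49 per 10000 (SD, n = 5), with 11.9, 17.6, 2.58, 13.5 and 0 in the retinas. In 33_M1 it was 5.21 ± 3.74, with 3.28, 5.86, 2.39, 11.5 and 3.05. These types made up 0.239% and 1.12% of cells and held 8.06% and 20.1% of Sst puncta. Only 12 of 314 and 28 of 1468 of their cells held Sst. The type 01_W3D1.1 held 14.1% of the puncta with 9.02% of cells. By level, 44_Novel and 33_M1 were followed by 38_FmidiON (1.66 ± 1.90), 29_Novel (1.27 ± 1.33), 28_FmidiOFF (0.856 ± 1.44) and 22_M5 (0.709). These rest on 5, 6, 7 and 8 holding cells in that order. The lowest was 24_Novel (0.0250 ± 0.0245). The highest type stood 83.5 times above the median type, which was at 0.109, while 30 of the 45 lay within 2-fold of that median.

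Vip and Npy were spread more evenly over types. Vip was highest in 41_AlphaONT at 1.23 ± 0.788 (SD, n = 5), followed by 37_Novel (1.00 ± 1.36) and 10_Novel (0.964 ± 1.16), and lowest in 39_Novel at 0.173. Its highest type was 2.43 times the median type, and 43 types lay within 2-fold of it. Npy was also highest in 41_AlphaONT, at 3.65, 4.11, 3.41, 2.78 and 2.24 in the retinas (3.24 ± 0.734), then in 44_Novel (3.10 ± 2.07), 28_FmidiOFF (2.70 ± 0.828) and 38_FmidiON (2.54). It was lowest in 43_AlphaONS at 0.861 ± 0.303. Its highest type was 1.85 times the median, and 44 types lay within 2-fold. Over the panel the median gene had a ratio of 3.99. For each of the 3 genes the retina ranges of every pair of neighbouring types in the order overlapped.

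**Figure D2:**
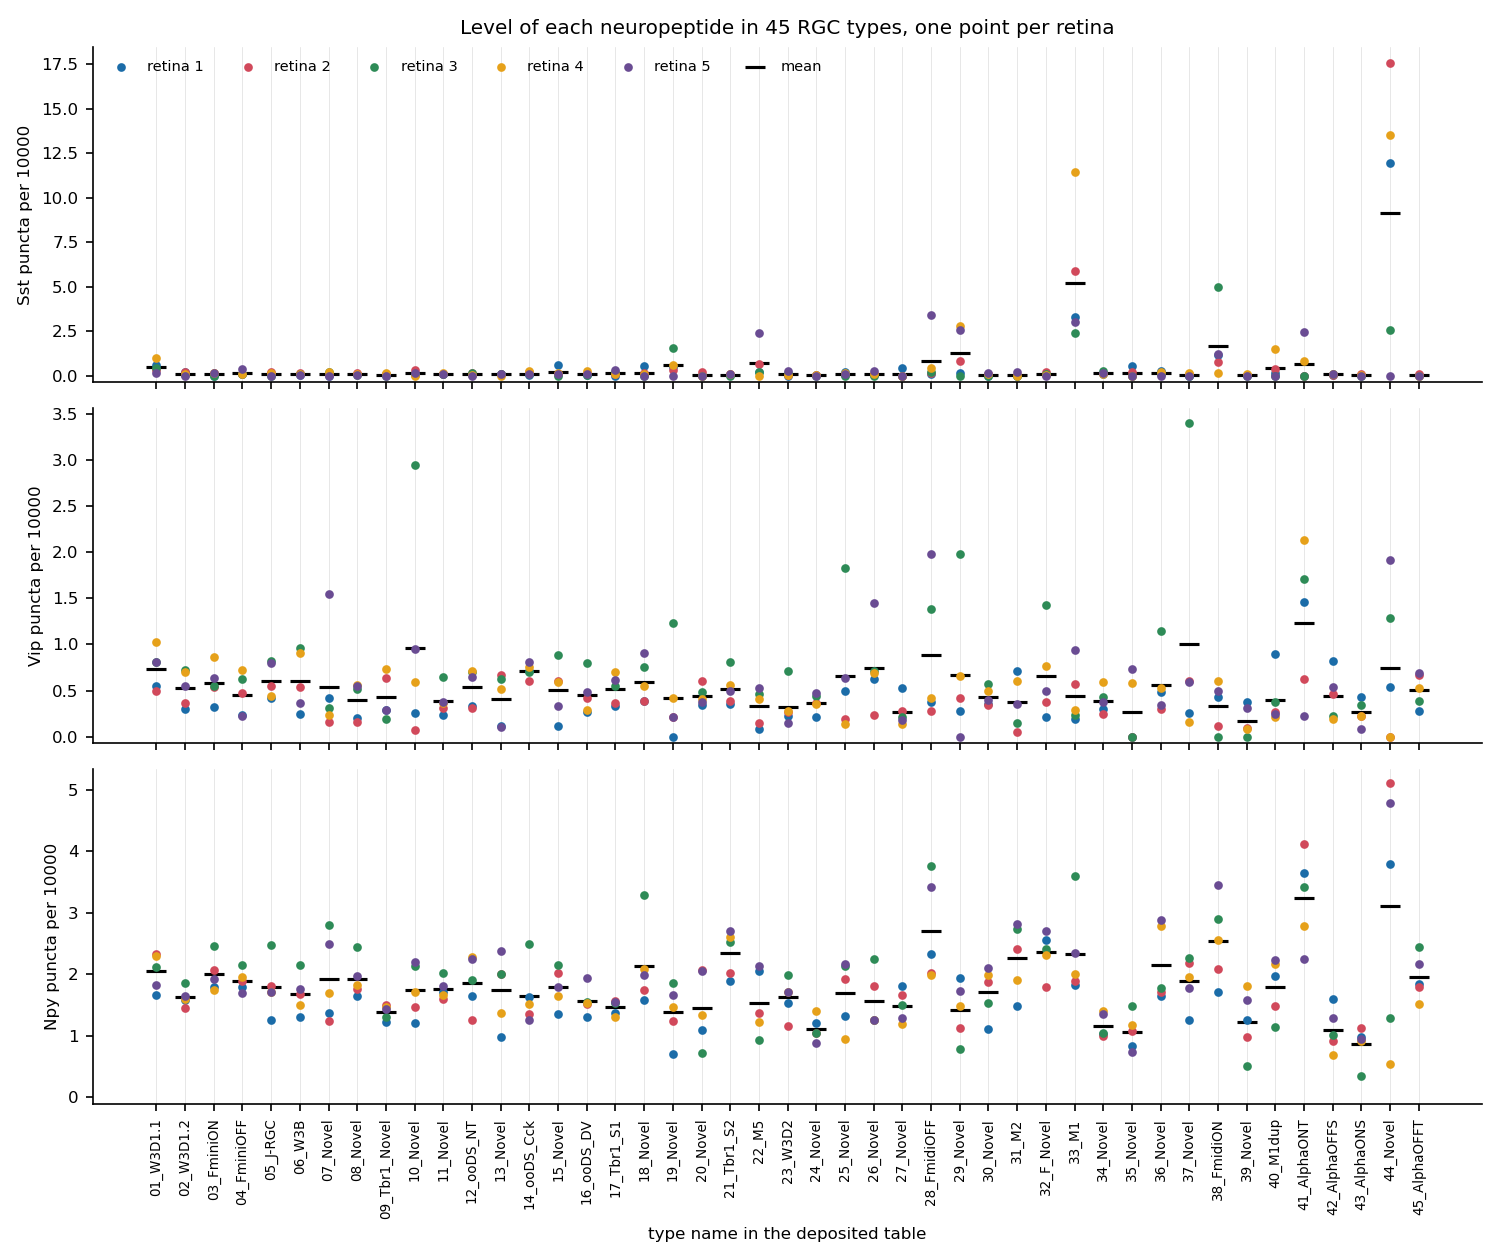
Levels of Sst, Vip and Npy (puncta per 10000) in the 45 predicted types, with a point for each retina and the mean. Sst stands out in 44_Novel (mean 9.12) and 33_M1 (mean 5.21), while 43 types for Vip and 44 for Npy lie within 2-fold of the median type (0.507 and 1.75).

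The genes whose type profile was most like that of each peptide were found by Pearson's r over the 45 types on log2 levels. For Sst they were Filip1l (0.780), Prox1 (0.755), Aif1 (0.752), Samsn1 (0.747) and Fxyd6 (0.747). Without 44_Novel these values dropped to 0.575, 0.527, 0.480, 0.478 and 0.583, so a large share of the likeness rested on that type. For Vip they were Chat (0.592), Npy (0.558), Tfap2a (0.545), Gnat1 (0.531) and Kcna5 (0.510). For Npy they were Gad1 (0.799), Gnat1 (0.755), Chat (0.732), Tfap2a (0.731) and Tfap2b (0.718). Sst was less like the other members, with r of 0.169 to Vip and 0.477 to Npy. The types share the same libraries, and no p is attached.

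Sst was higher towards the edge of the retina. Its level in retinas 1 to 5 was 0.161, 0.142, 0.0835, 0.192 and 0.115 per 10000 in the inner part (scaled radius below 0.5) and 0.206, 0.282, 0.243, 0.397 and 0.359 in the outer part. The outer level was above the inner one in each retina. The log2 change was 1.04 ± 0.20 (SE, adjusted p = 0.0333 in edgeR with the retina as a block), and 20 of 300 genes passed in this comparison (6.67%), 10 in each direction. Over rings of rising radius the mean level was 0.134, 0.148, 0.246, 0.397 and 0.603, the last from 3 retinas. Of the 52 Sst-rich cells 42 lay in the outer part, or 80.8%, against 64.4% of all cells. Within slides of a retina the outer level was the higher in 9 of 10 cases. The adjusted p rose to 0.0893, 0.0544 and 0.0970 without retina 2, 3 or 4. It was 0.222 without the cells of at least 5 puncta, and 0.0797 with the type mix held equal.

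Vip and Npy did not pass from the inner to the outer part. Vip changed by 0.26 ± 0.18 (adjusted p = 0.337 in edgeR), higher outside in 4 of 5 retinas. Npy changed by -0.24 ± 0.10 (adjusted p = 0.164), from 1.96 ± 0.0644 to 1.70 ± 0.265 per 10000 (SD, n = 5), lower outside in 4 of 5. With the section as a block 51 of 299 genes passed (17.1%), and Npy was among them at -0.27 (adjusted p = 0.0260 in edgeR). Sections of a retina are not independent replicates. All p-values with the section block measure spread between sections and not between retinas. Of the other genes on the peptide list, Penk was lower outside by -0.25 ± 0.03 (adjusted p = 0.0105) and the growth factor Igf1 higher by 0.15 (adjusted p = 0.0351). Galanin, cholecystokinin and Tac2 did not pass.

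Along the vertical file axis (Y, whose anatomical direction the sources used here do not give), Vip was higher above 0 in every retina. Sst was lower there in all but retina 5. Whether all retinas are turned the same way is not given either. A shared sign on this axis need not be a shared anatomical side. Vip stood at 0.233, 0.257, 0.719, 0.436 and 0.385 per 10000 below 0 in retinas 1 to 5 and at 0.462, 0.547, 0.855, 0.758 and 0.697 above 0. Every retina was higher above 0, and so were 9 of 10 slides within retinas. The log2 change of 0.79 ± 0.14 (SE) did not pass in edgeR (adjusted p = 0.165), where none of 300 genes did (0%), with 29 genes at an unadjusted p below 0.05. DESeq2 called 6 genes (2%), Vip among them at 0.80 (adjusted p = 0.00960). The section block, again over sections rather than retinas, called 64 of 299 (21.4%), with Vip at 0.77 (adjusted p = 0.00214 in edgeR). Comparing the far ends of the axis, without its middle, called 3 genes (1%), with Vip at 1.15 (adjusted p = 0.0277). Without retina 3, the retina with the highest Vip, the change was 0.93 and passed (adjusted p = 0.0312).

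Sst was lower above 0 in 4 retinas and higher in retina 5. Its levels below and above 0 were 0.359 and 0.0495 in retina 1, 0.319 and 0.119 in retina 2, 0.185 and 0.137 in retina 3, 0.511 and 0.0854 in retina 4, and 0.0949 and 0.310 in retina 5. The log2 change was -1.3 ± 0.64 over all retinas (adjusted p = 0.450 in edgeR), -1.91 without retina 5 (adjusted p = 0.186) and -1.29 with the section block (adjusted p = 0.0107). Of the 45 Sst-rich cells outside retina 5, 40 lay below 0, although 47.2% of the cells of those retinas lay above it. All 7 of retina 5 lay above 0, where 61.6% of its cells lay, and also on the negative side of the horizontal axis.

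The 2 cone opsins were set beside Sst along Y. Opn1sw, the short-wave cone opsin, whose expression in mouse is highest ventrally, changed along Y by -1.34, -0.56, 0.23, -0.48 and 1.37 in retinas 1 to 5. Retinas 1, 2 and 4 were thus lower above 0 for Sst and Opn1sw and retina 5 higher for both, while retina 3 had small differences of opposite sign. Opn1mw, the middle-wave opsin, changed by -0.53, 0.50, 0.24, 0.26 and 0.61, so it shared the sign of Sst in retinas 1 and 5 alone. The part of the orientation of retina 5 in the Sst and Vip values was not tested. Along the horizontal axis 30 of 300 genes passed (10%) but no member did: Sst changed by -0.20 ± 0.39 (adjusted p = 0.757 in edgeR), Vip by -0.07 (adjusted p = 0.800) and Npy by 0.04 (adjusted p = 0.737). Npy changed by 0.05 along Y (adjusted p = 0.760).

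**Figure D3:**
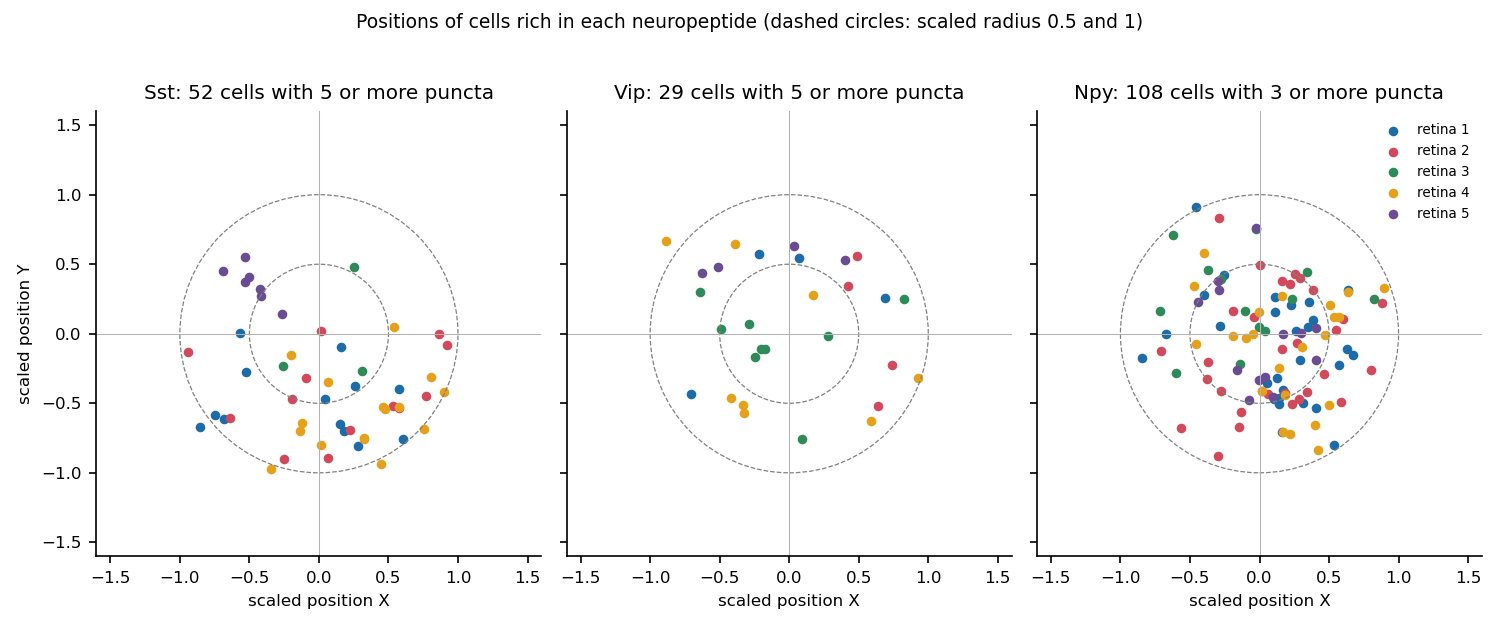
Positions of cells with many Sst, Vip or Npy puncta (at least 5, 5 and 3) on the scaled circular coordinates of the table (no unit), coloured by retina, with dashed circles at radius 0.5 and 1. Of the Sst-rich cells 42 of 52 lie outside radius 0.5, 40 of the 45 of retinas 1 to 4 lie below 0 on the vertical axis, and all 7 of retina 5 lie above it.

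**Figure D4:**
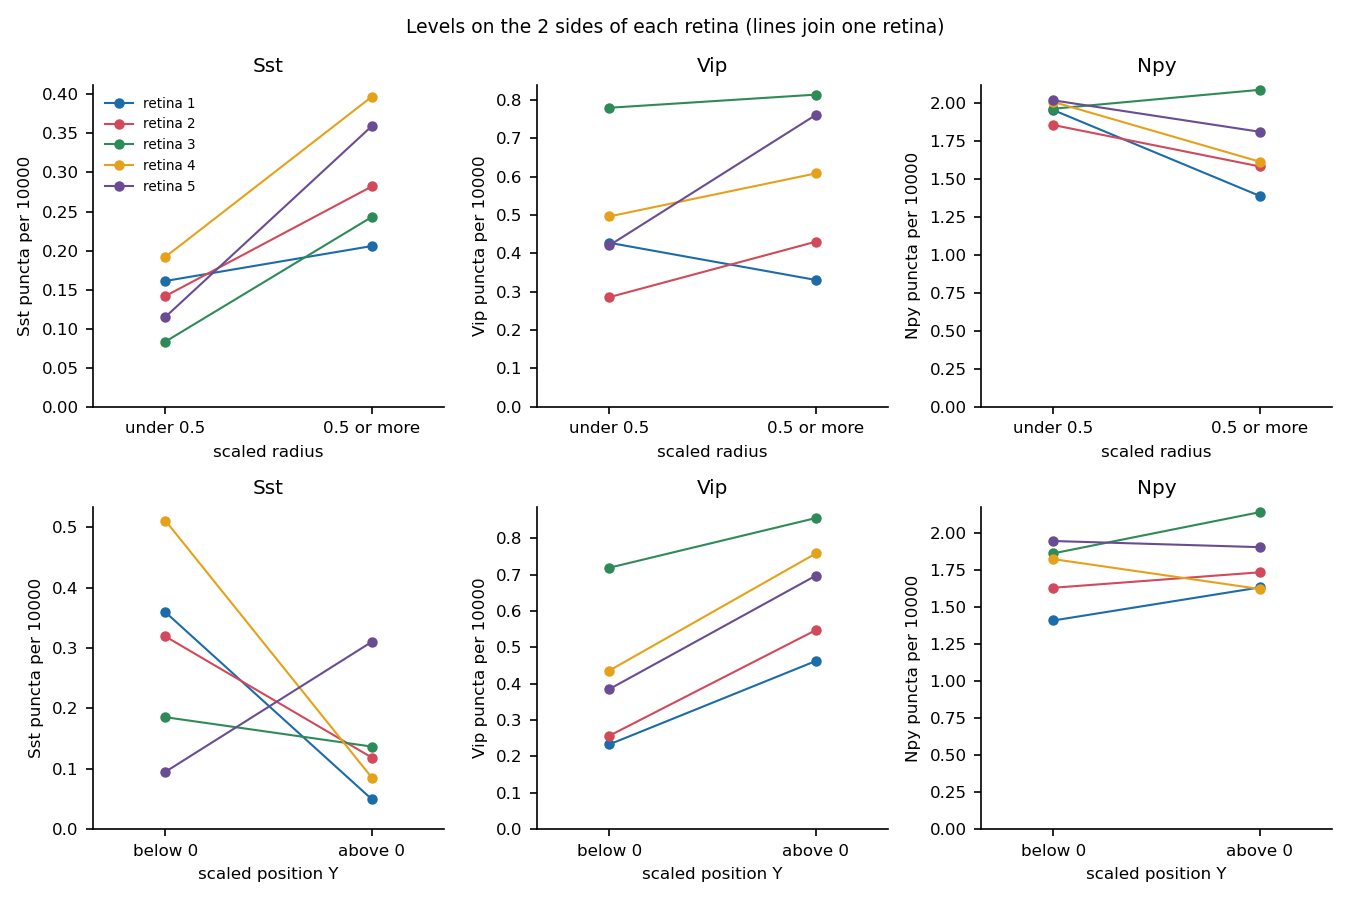
Level of Sst, Vip and Npy (puncta per 10000) in the inner and outer part and below and above 0 of the vertical axis, with a line for each retina. Sst rises outwards in all 5 retinas, and Vip is higher above 0 in all 5, while Sst falls in 4 and rises in retina 5.

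Within single types no member passed on any axis. From the inner to the outer part 239 of 10227 pairs of gene and type passed (2.34%). Npy could be tested in 22 types and was lower outside in 18 of them, with a median of -0.26, Vip in 1 type and Sst in none. Along Y 41 of 11080 pairs passed (0.37%). Vip was tested there in 5 types and stood higher above 0 in each, by 1.54 in 16_ooDS_DV, 1.37 in 14_ooDS_Cck, 1.03 in 02_W3D1.2, 0.74 in 01_W3D1.1 and 0.59 in 03_FminiON. Sst was tested in 33_M1 alone, at -2.55 (adjusted p = 0.279 in edgeR). Along the horizontal axis 32 of 11379 pairs passed (0.281%). Sst stood at -1.38 in 33_M1 and at 0.78 in 01_W3D1.1.

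The peptides were rarely found in the same cell. After each cell was thinned to 100 puncta, no cell held both Sst and Vip, where independence gives 0.929. Sst and Npy met in 8 cells against 3.69, with 3, 1, 1, 2 and 1 cells in the retinas. Their log2 odds ratio was 1.63 ± 0.87 (SD, n = 5; exact two-sided sign-flip permutation test, p = 0.063, the smallest that 5 retinas allow; adjusted over 3 pairs 0.0938). Retina 2 lay above 0 only through the 0.5 added to each count, since its 1 cell stood against 1.28 under independence. Independence gives 0.315 to 1.28 cells per retina, so the added 0.5 raised the other retinas too. For Sst and Vip, with 0 cells holding both, the same permutation test gave a log2 odds ratio of 1.57 and the same p. This p therefore cannot decide whether Sst and Npy meet more often than independence gives. Without thinning Sst and Npy met in 28 cells against 21.8, with a log2 odds ratio of 0.61 that was above 0 in 4 of 5 retinas (exact permutation p = 0.1875). Vip and Npy met in 18 cells against 10.5, with 1.01 ± 0.86, above 0 in 4 of 5 (exact permutation p = 0.125). Without thinning Vip and Npy met in 111 cells against 76.3, with 0.64 ± 0.30, above 0 in 5 of 5 retinas.

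Puncta may be assigned to the wrong one of 2 touching cells, so the nearest RGC was compared with the 20th nearest of the same section. Their median distances were 9.73 and 43.1 in the table's units. Of 417 cells whose nearest cell held any Sst punctum, 20 held Sst themselves (4.80%). Of 408 cells whose 20th nearest cell held it, 4 did (0.980%), a log2 difference of 1.96 ± 1.02 (SD, n = 5). Vip was found in 78 of 1461 (5.34%) and 32 of 1530 (2.09%), a difference of 1.44 ± 0.77. Npy was found in 355 of 5775 (6.15%) and 368 of 6220 (5.92%), a difference of 0.05 ± 0.23. Sst and Vip were above 0 in 5 of 5 retinas, Npy in 3. Over the 300 panel genes the same difference had a median of 0.296 and ran from -0.198 to 2.42. Counted from the highest, Sst ranked 3, Vip 10 and Npy 286 of the 300.

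Next to cells with at least 5 puncta the numbers were small. Of 24 cells with fewer than 5 Vip puncta whose nearest cell held at least 5, 7 held Vip (29.2%). Of 31 such cells whose 20th nearest cell held at least 5, 0 did, against 1.19% of all cells of the table. The second set enters the log2 difference only through the added 0.5. That difference was 2.84 ± 0.71 (SD, n = 5), above 0 in 5 of 5 retinas (exact two-sided permutation p = 0.063, the smallest possible, and 0.1875 adjusted over 3 genes). With at least 3 Vip puncta in the neighbour it was 11 of 72 (15.3%) and 0 of 92. With at least 5 Sst puncta in the neighbour, Sst was found in 2 of 40 (5.00%) and 1 of 47 (2.13%). The difference was 0.72 ± 1.05 (exact permutation p = 0.25). In most retinas each of the 2 sets had no holding cell, so these values rest largely on the added 0.5. For Npy, with at least 3 puncta in the neighbour, it was 7 of 105 (6.67%) and 7 of 116 (6.03%), beside 4.83% of all cells of the table.

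The excess around Sst reached beyond the first neighbour. Sst was found in 20, 22 and 21 of the cells at rank 1, 2 and 3 of nearness to an Sst-holding cell, in 11 at rank 5 and in 2 at rank 10, where the sections' shares gave 1.93. Relative to those shares the means of the retinas were 11.9, 12.3, 11.6, 5.59 and 0.615. For Vip the ratios were 3.72, 4.06, 3.23, 2.27 and 1.91, and for Npy 1.12, 1.32, 1.23, 1.30 and 1.25. At rank 20 and 50 Sst stood at 2.72 and 3.38, from 4 and 5 cells, and Vip at 1.54 and 1.86. Cells at rank 5 and 10 lay at median distances of 20.2 and 29.3.

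**Figure D5:**
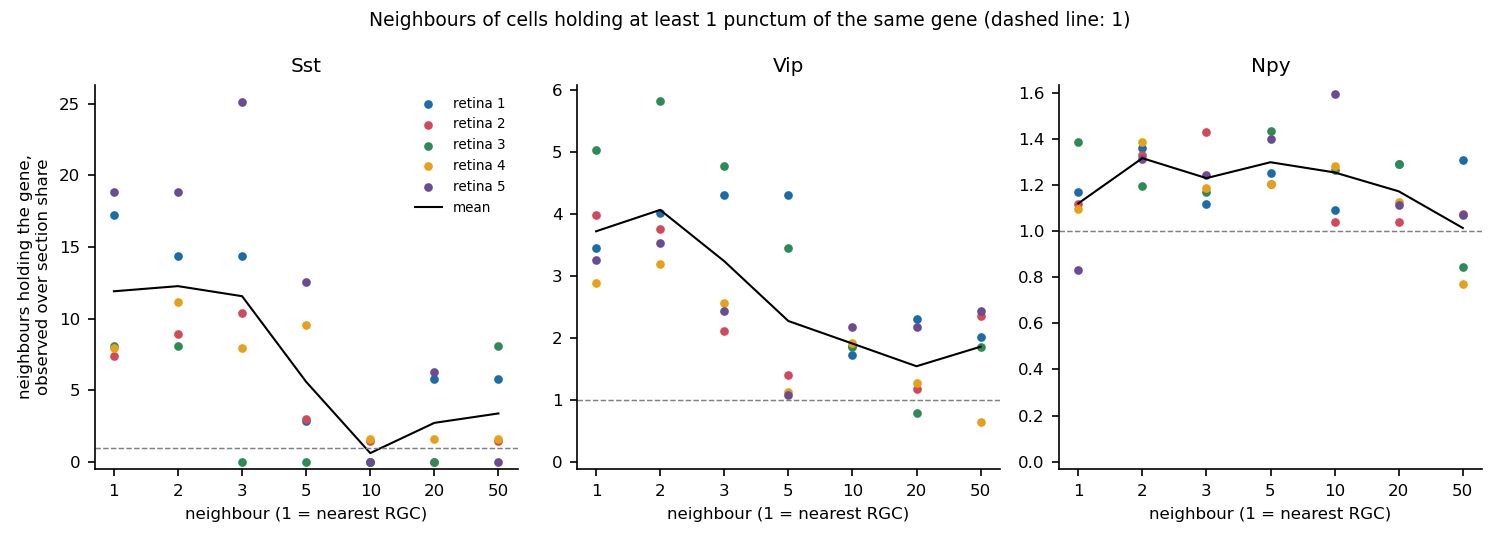
Share of neighbouring cells holding Sst, Vip or Npy relative to the section's share, by rank of nearness to a cell holding the gene, with a point for each retina and a line through the means. The nearest cell stands at 11.9 for Sst, 3.72 for Vip and 1.12 for Npy.

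The partner genes of Sst were far higher in the Sst-rich cells than in the cells around them. Partner genes were chosen because they were higher in cells holding the peptide in these same data. A higher value in the source cells was thus set by the choice. The order of the nearest and the 20th nearest cell was not set directly. Among neighbours of holding cells, however, 20 nearest and 4 20th nearest cells held Sst, 78 and 32 Vip, and 355 and 368 Npy. Whether the order is free of the choice was not tested. In the Sst-rich cells Serpine2 stood at 170 ± 12.9 per 10000, in their nearest cells at 2.58 ± 2.65 and in the 20th nearest at 2.47 ± 4.36 (SD, n = 5). Zcchc12 stood at 206, 14.1 and 13.3 in that order, Cacna1e at 156, 18.3 and 10.6, Hap1 at 377, 33 and 52.4, and Gal at 48.7, 0.52 and 1.90. Around the Npy-rich cells Chat stood at 72.1, 18.8 and 15.2 and Gad1 at 78.8, 38.9 and 28.4, and around the Vip-rich cells Kcna5 stood at 61.7, 28.9 and 13.

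With any punctum as the source, the values of the nearest and the 20th cell lay closer to that of the source. Around Sst-holding cells Serpine2 stood at 31.3 in the cell itself, 4.2 in the nearest and 4.03 in the 20th, Hap1 at 93.4, 42.9 and 35.2, and Cacna1e at 39.3, 14.9 and 9.17. Hap1 and Cacna1e were each higher in the nearest than in the 20th cell in 4 of 5 retinas. Around Vip-holding cells Nr4a2 stood at 4.26, 2.17 and 1.55, Lamp5 at 4.94, 4.02 and 2.99, and Kcna5 at 21.1, 16.5 and 14.0. Around Npy-holding cells Chat stood at 25, 11.7 and 10.1, Gad1 at 38.2, 24.9 and 22.7, and Tfap2b at 25.4, 17.9 and 15.9. Lamp5, Gad1 and Tfap2b were higher in the nearest than in the 20th nearest cell in 5 of 5 retinas. Cells of other classes are not analysed here, so puncta that an RGC may have received from a touching cell outside the table could not be counted.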

How the data were processed

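The authors deposited counts of transcript puncta per gene and cell, with a predicted type, retina, section and scaled position for each cell, per the file headers; segmentation and type prediction settings are not given in the sources used here. All cells of the table were used, no cell name occurred more than once, and doublets were not called. Slides are not tied to samples by the labels, so retinas were the replicates; whether their spread also holds technical differences was not tested. Levels are puncta per 10000 puncta of all genes. Sums per retina and side, or per retina and gate, were tested with edgeR 4.0.16 (quasi-likelihood, TMM, retina block, filterByExpr; standard errors from F), with DESeq2 1.42.0 as an alternative and limma 3.58.1 where type or section mix was held equal, with Benjamini-Hochberg adjustment over all genes at 0.05. The models were tested on simulated counts. Odds ratios had 0.5 added to each count. Radius was split at 0.5 and axes at 0. The Opn4 share of 0 is given with the limit that 3 counts allow, for counting error only. Other counts of 0 are given without such a limit.

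Named with each gate are up to 8 genes per direction with the largest change among those called, in the same direction in every retina and with at least 100 puncta; the 5 genes of highest r over types; and list genes a result turns on. Members and lists were chosen with earlier results of these data known, and the tests of cells with many puncta against none, the weighting to equal sections, the neighbours of cells with any punctum and the fits without 33_M1 and 44_Novel were chosen after seeing the data. No receptor of these peptides was on the panel. Protein and promoter sequences were not used here.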

Additional observations from a re-analysis of the deposited data

Results flagged for a closer look

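Among the values by retina, 4 had 1 retina far from the other 4, out of 33 checked. The share that chance gives for such sparse counts was not tested. Sst in 38_FmidiON stood at 4.96 per 10000 in retina 3 and at 0.151 to 1.23 in the others. The 4.96 came from 12 puncta in 1 cell, and every other retina also had 1 cell of this type with Sst. Sst in 28_FmidiOFF stood at 3.42 in retina 5, from 19 puncta in 2 cells, and at 0.0752 to 0.418 in the others. Vip in 37_Novel stood at 3.40 in retina 3, from 9 puncta in 3 cells, and at 0.163 to 0.605 in the others. For Npy, cells whose nearest cell held at least 5 Npy puncta were set against cells whose 20th nearest cell did. The log2 difference was 2.81 in retina 2 and between 0 and 0.000818 in the others. Only 4 cells with at least 5 Npy puncta exist, retinas 3 and 5 have none, and retina 1 has no cell that could be compared beside its own. Over all retinas 1 of 4 cells beside such a cell held Npy, and 0 of 5 at the 20th rank. The value of retina 2 rests on that 1 cell and on the added 0.5. The values of the other retinas come from the added 0.5 and are not measurements.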

How the results depend on the processing

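Limits: the peptides are sparse (Sst has the 5th lowest level of the panel), 5 retinas cannot give an exact p below 0.063, and position, section and slide are partly tied. The radial change of Sst was 1.06 with no replicate block, 1.13 between the outermost and innermost parts, 0.64 without cells of at least 5 puncta, 0.74 with equal type mix and 0.70 without 33_M1 and 44_Novel, each short of the threshold; leaving out 1 retina gave 0.93 to 1.21, called in 2 of 5. Npy passed radially with the section block (-0.27), in which sections of the same retina count as separate blocks here and below. Along X the section block gave 0.025 for Sst, and slide and section blocks gave -0.071 and -0.091 for Npy. Along Y, Sst passed at -1.29 with the section block, Vip at 0.80 (DESeq2), 0.77 (section) and 1.15 (far ends), and Npy turned to -0.073 (slide), -0.081 (section) and -0.039 (far ends). Without single retinas, Vip and Npy ranged radially over 0.15 to 0.42 and -0.31 to -0.18; Sst, Vip and Npy along X over -0.49 to 0.14, -0.24 to 0.046 and -0.0046 to 0.091, and along Y over -1.91 to -0.90, 0.71 to 0.93 and 0.02 to 0.11. Genes called with Sst numbered 102 with at least 2 puncta, 63 thinned and 112 in rich cells; with Vip 50, 64 and 6, and 73 and 58 with equal types or sections; with Npy 35 with at least 2 puncta and 30 in rich cells. Leaving out 1 retina gave 30 to 46, 77 to 115 and 56 to 73. In rich cells the fit gave -10.31 for Lhx4 with Vip, where it had 0 puncta, so this is no measured turn; Zic1, Lypd1 and Isl2 turned to 0.36, 0.20 and 0.044 with Npy. Log2 odds ratios unthinned were 0.21 (Sst and Vip) and 0.61 (Sst and Npy); with at least 2 puncta independence gives 0.0275, 0.056 and 0.039 thinned cells with both (Sst and Vip, Sst and Npy, Vip and Npy), none was found, and 6.51, 5.67 and 5.95 are set by the added 0.5. Without single retinas the pairs ranged over 1.34 to 1.77 (Sst and Vip, with no cell holding both, likewise set by the 0.5), 1.48 to 1.99 and 0.71 to 1.30. The neighbour difference was 1.96 for Sst with any punctum, and for Vip 0.86 with at least 10 puncta, 1.79 against the 50th cell and 1.44 with any punctum, over 0.33 to 0.98, 2.64 to 3.06 and 0.000204 to 0.70 without single retinas. The cause of these changes was not tested.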

Other observations

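In Vip-holding cells all 3 rod genes, 8 of 11 bipolar genes and 4 of 5 Mueller glia genes were higher, 1 bipolar gene was lower, and the cone opsins Opn1sw (0.39, adjusted p = 0.122 in edgeR) and Opn1mw (-0.03, adjusted p = 0.872) did not pass. Gnat1, the rod transducin subunit, rose from 0.308 to 0.615 puncta per cell, a log2 change of 0.73 ± 0.07 (SE, adjusted p = 1.1e-05 in edgeR), and Trpm1, the transduction channel of ON bipolar cells, rose by 0.77 ± 0.10 from 0.178 to 0.367. Cabp5, a calcium-binding protein of bipolar cells, rose by 0.72 ± 0.10, Rlbp1, the retinaldehyde-binding protein of Mueller glia, by 0.34 ± 0.06 and Aqp4, their water channel, by 0.51 ± 0.11, all in edgeR. Each of these passed when the cells without Vip were weighted to the same sections (Gnat1 0.64, Trpm1 0.67, Cabp5 0.66, Rlbp1 0.35, Aqp4 0.50). Sox9, a glial transcription factor, did not pass (0.22 ± 0.15, SE).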
